A study of Mus musculus with 4 samples.

Results

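miR-34b, miR-34c and miR-449 are microRNAs made from 2 gene clusters that are most active in multiciliated cells, the cells that carry many beating cilia in the lining of the airways, the oviduct and the brain ventricles. The 9 rows of the authors' deposited table that carry these names, any arm, were taken from 1167 rows in all: 4 from the miR-34b/c cluster and 5 from the miR-449 cluster, with miR-34a left out. Membership within the set was by name alone, but the names were chosen with earlier results of these data known. Small RNA had been sequenced from the main olfactory epithelium (the odour-sensing lining of the nasal cavity) of C57BL/6 males 3 months old, with 2 libraries from wild-type (WT) and 2 from AC3-/- animals. AC3 is adenylyl cyclase 3, which produces cAMP when odorants bind receptors on olfactory sensory neurons. The study set the 2 genotypes side by side to profile miRNAs with and without this enzyme. The labels do not say how the AC3-/- allele was made, nor whether each library is a separate mouse, so a p-value here reflects the spread among the libraries at hand, and that spread may be technical.

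A microRNA is cut from a hairpin precursor, whose 2 arms give a 5p and a 3p product. The product is loaded into an Argonaute protein and pairs with messenger RNAs mainly through its seed, bases 2 to 8, and the bound messages are repressed. miR-34 and miR-449 share a seed on the 5p arm. They are known to promote the making of motile cilia, in part by repressing Cp110, a protein that caps centrioles, and members of the Notch pathway. Olfactory sensory neurons carry non-motile cilia, whereas multiciliated cells belong to the respiratory lining that borders the olfactory area.

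The mature sequences are shown because the seed divides the members into groups that the names do not show. 7 of the 9 members had a mature sequence in RefSeq's table for GRCm38.p6; miR-34c-5p and miR-449b had none there. Capitals mark the seed, each sequence runs 5′ to 3′, and the mouse prefix mmu- is dropped from most names afterwards.
mmu-miR-34b-5p: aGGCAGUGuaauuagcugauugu
mmu-miR-449a-5p: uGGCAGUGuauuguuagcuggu
mmu-miR-449c-5p: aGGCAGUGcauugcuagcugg
mmu-miR-34a-5p: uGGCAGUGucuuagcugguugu
mmu-miR-34b-3p: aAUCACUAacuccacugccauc
mmu-miR-34c-3p: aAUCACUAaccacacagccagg
mmu-miR-449a-3p: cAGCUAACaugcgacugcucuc
mmu-miR-449c-3p: cAGUUGCUagcugcacuacccu
The seed GGCAGUG was found in 4 mature miRNAs of the RefSeq table, and all 4 are rows of the deposited table: miR-34b-5p, miR-449a-5p, miR-449c-5p and miR-34a-5p, which is no member. The count could not include miR-34c-5p and miR-449b, which had no sequence there. The seed AUCACUA of the 3p arms was shared by miR-34b-3p and miR-34c-3p and by no other entry. The 3p seeds of miR-449a and miR-449c were each found once. Outside the seed the 5p arms differ: miR-449a-5p and miR-449c-5p lie 4 edits apart (single-base changes, insertions or deletions), miR-34b-5p lies 7 edits from each of them, and miR-34b-3p and miR-34c-3p lie 5 apart. No row outside the members had the same pair of means as a member with a mean of at least 10.

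The precursors sit at 2 places. Mir34b (chr9:51103562-51103645) and Mir34c (chr9:51103034-51103110) lie on the minus strand of GRCm38 with 451 bases between them, inside an intron of every annotated Btg4 transcript, which runs on the opposite strand (GENCODE M21). Mir449c (chr13:113035983-113036091), Mir449b (chr13:113037419-113037498) and Mir449a (chr13:113037534-113037624) lie on the plus strand in introns of Cdc20b, which is read in the same direction. Mir449c begins 872 bases after the annotated start of Cdc20b, and 35 bases separate Mir449b from Mir449a. The hairpins of Mir34b and Mir449a are given here with both mature arms in capitals, since the arms are compared later.
Mir34b: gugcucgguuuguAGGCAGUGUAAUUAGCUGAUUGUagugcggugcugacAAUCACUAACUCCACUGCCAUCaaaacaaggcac
Mir449a: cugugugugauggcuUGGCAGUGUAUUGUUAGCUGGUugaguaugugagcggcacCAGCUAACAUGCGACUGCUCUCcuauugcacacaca

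The deposited table gives 1 mean per genotype, in normalised reads (reads divided by a size factor for the depth of each library). Summed over the rows of this table, the 2 AC3-/- libraries together hold 19235397 to 20028558 reads, and the 2 WT libraries 21166279 to 23101591. Reads outside these rows are not included, and a read assigned to several rows would count in each. Each mean is a sum of whole numbers of 2 steps, which were themselves estimated from the deposited means. With these steps the reads of the single libraries could be worked back for 1124 of 1167 rows, among them 8 of the 9 members. The libraries are called a and b within each genotype, in falling order of size factor, and the letters carry no replicate number. Profiles were compared over the miRNAs whose values could be split and whose mean was 10 or more, 6 members and 443 others, called the tested miRNAs from here on. Of these, 116 differed 2-fold or more between the WT libraries and 26 between the AC3-/- libraries. WT library b stood apart: 95 to 116 tested miRNAs differed 2-fold or more between it and each of the other 3, against 26 to 52 among those 3. The genotype differences of the members and their ratios are also given without it. Adaptor ligation and amplification work unequally well on different sequences, so a level set against that of another miRNA is a ratio of reads, not of molecules.

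The most abundant member by far was mmu-miR-34c-5p. The authors' deposited table lists it with 230226 normalised reads in AC3-/- and 225941 in WT, place 11 and place 13 of the table. It made up 92.0% of the summed means of all 9 members in AC3-/- and 92.5% in WT, and 2.63% and 1.83% of the whole table. The means of the whole table sum to 8739148 in AC3-/- and 12320877 in WT. The shares of the whole table thus rest on unlike totals and do not stand for a genotype difference in miR-34c-5p. This miRNA could not be split into libraries, because 136 pairs of whole reads give its AC3-/- mean and 81 give its WT mean. Every statement on single libraries is therefore about the remaining members, and whether miR-34c-5p varied between libraries as they did was not tested.

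In WT library b each of the 6 tested members of both clusters stood low. The normalised reads of mmu-miR-34b-5p were 1268 in AC3-/- library a, 1862 in AC3-/- library b, 2191 in WT library a and 631.5 in WT library b. In the same order its opposite arm, mmu-miR-34b-3p, had 4814, 11070, 10220 and 3121. mmu-miR-34c-3p, the scarcer arm of Mir34c, had 3580, 7000, 8740 and 1676. For all 3 products of the miR-34b/c cluster, WT library b was the lowest of the 4 libraries, and the 2 genotypes overlapped because WT library a was the highest for miR-34b-5p and miR-34c-3p and lay below only AC3-/- library b for miR-34b-3p.

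The miR-449 cluster had the same order of libraries as miR-34b-5p and miR-34c-3p, with a wider gap. Its main product, mmu-miR-449a-5p, had 4027 and 5969 normalised reads in the AC3-/- libraries and 9079 and 512.2 in the WT libraries, a before b. mmu-miR-449c-5p stood at 149.8 and 304.9 in AC3-/- and at 349.6 and 30.40 in WT. The scarce mmu-miR-449a-3p stood at 28.75 and 48.24 in AC3-/- and at 66.94 and 4.678 in WT, the last value resting on 4 reads (95% exact Poisson interval 1.27 to 11.98 normalised reads). In each of the 3, WT library a was the highest and WT library b the lowest, with both AC3-/- libraries between them.

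The remaining 2 members were near the limit of detection. miR-449b had 1 and 2 reads in the AC3-/- libraries and 2 and 0 in the WT libraries. miR-449c-3p had 0 and 1 reads in AC3-/- and none in WT. The upper 95% exact Poisson limit for a count of 0 is 3.92 normalised reads in WT library a and 4.31 in WT library b. No difference in these 2 was detectable at this depth. These intervals and limits cover counting error only, since reads amplified by PCR without molecular identifiers are not independent molecules.

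**Figure D1:**
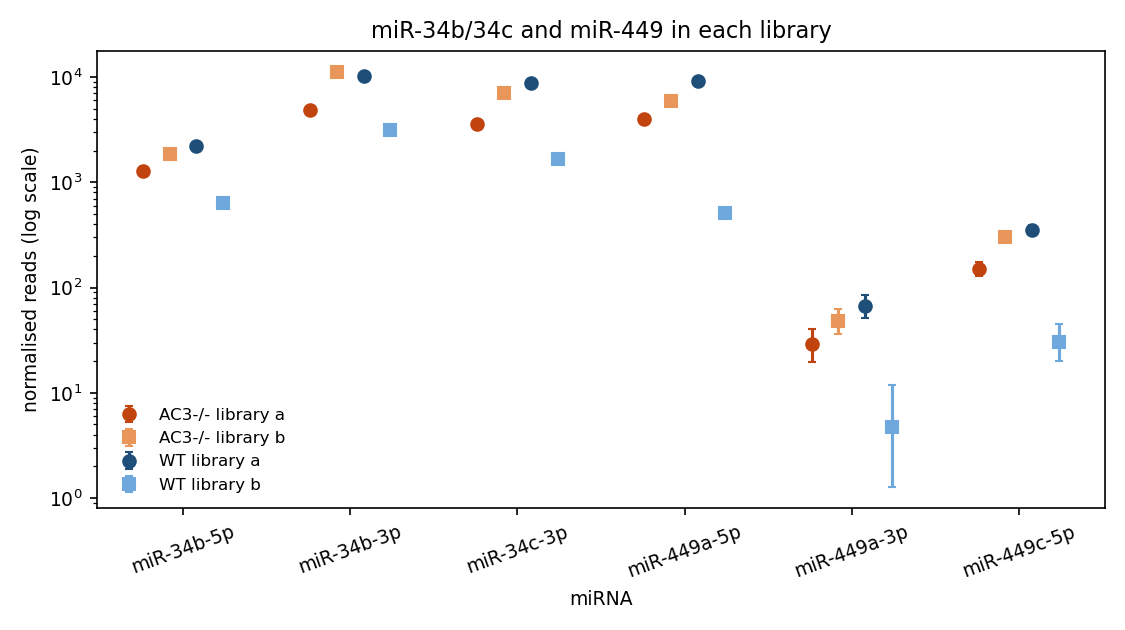
Normalised reads (log scale) of the 6 members with a mean of at least 10 that could be split into libraries; points are the 4 libraries and bars are 95% exact Poisson intervals (counting error only). WT library b is the lowest point of each miRNA, for example 512.2 normalised reads of miR-449a-5p against 9079 in WT library a.

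Across the 6 tested members, WT library a was the highest library in 5; for miR-34b-3p it was AC3-/- library b. Both AC3-/- libraries lay between the 2 WT libraries in 5 of 6, an order found in 27.2% of the tested miRNAs. WT library b was the lowest in 6 of 6, against 33.4% of the tested miRNAs. No member had genotypes that did not overlap, against 33.6% of the tested miRNAs. The 6 come from 2 clusters, and some are arms of the same precursor, so they are not 6 independent observations.

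Between the WT libraries the members were among the tested miRNAs that lay lowest in library b. miR-449a-5p was 17.7-fold higher in library a than in library b (95% counting interval 16.1 to 19.6), miR-449a-3p 14.3-fold (5.32 to 54.1) and miR-449c-5p 11.5-fold (7.71 to 17.9). They took places 3, 4 and 5 from the bottom of the tested miRNAs ordered by the log2 ratio of library b to library a. The miR-34b/c products differed less. miR-34c-3p was 5.22-fold higher in library a (4.93 to 5.52), miR-34b-5p 3.47-fold (3.15 to 3.82) and miR-34b-3p 3.27-fold (3.14 to 3.42), at places 9, 19 and 22. All 6 members were 2-fold or more lower in library b, against 11.8% of the tested miRNAs, and 4 were 4-fold or more lower, against 2.45%. The median log2 ratio of library b to library a was -2.93 for the members and 0.04 for all tested miRNAs. With 1 library against 1 there is no test of this gap.

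The AC3-/- libraries also differed in the members, in 1 direction and by less. Library b was above library a in 6 of 6, with a median log2 ratio of 0.85 against 0.01 for all tested miRNAs. miR-34b-3p was 2.30-fold higher in library b (95% counting interval 2.23 to 2.37), miR-449c-5p 2.04-fold (1.69 to 2.46) and miR-34c-3p 1.96-fold (1.88 to 2.03). miR-449a-3p was 1.68-fold (1.07 to 2.68), miR-449a-5p 1.48-fold (1.43 to 1.54) and miR-34b-5p 1.47-fold (1.37 to 1.57). 4 of 6 were 1.5-fold or more higher in library b, against 11.1% of the tested miRNAs. The size of the gap did not follow the cluster here: the median log2 ratio was 0.97 for the 3 miR-34b/c products and 0.73 for the 3 miR-449 products, where in WT it was -1.79 and -3.58.

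**Figure D2:**
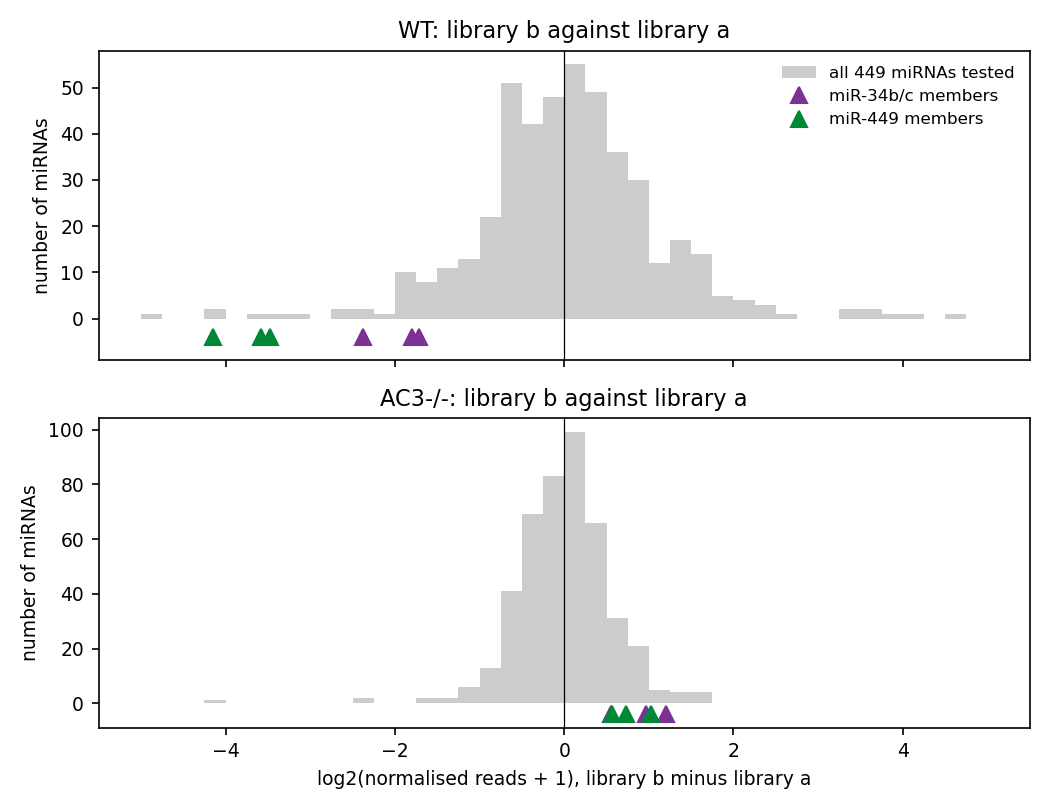
Difference in log2(normalised reads + 1) between library b and library a, in WT (top) and AC3-/- (bottom); grey bars count the tested miRNAs, and triangles mark the members of each cluster. In WT the miR-449 triangles lie between -4.15 and -3.48 and the miR-34b/c triangles between -2.38 and -1.71; in AC3-/- all 6 lie between 0.55 and 1.20.

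Markers of other cells also differed between the WT libraries. Of 9 leukocyte miRNA rows tested (arms of miR-142a, miR-223, miR-150, miR-155 and miR-342), 8 were lower in WT library b than in library a, with a median log2 ratio of -1.79. The summed level of the 10 leukocyte rows was 15876 and 20355 normalised reads in AC3-/- and 18174 and 6450 in WT, and that of the 8 members 13869 and 26257 against 30648 and 5976. Of the 6 rows of the sensory-organ cluster (miR-183, miR-96 and miR-182) 3 could be split, and these went the other way. They were higher in WT library b in 3 of 3 with a median log2 ratio of 2.29 (summed level of the 3 rows 1374 and 659.9 in AC3-/-, 1318 and 6309 in WT). Of the 10 rows of the epithelial miR-200 family 6 could be split. Those tested were higher in WT library b in 5 of 5, with a median of 1.24 (summed level of the 6 rows 47932 and 46240 against 42554 and 99988). Of the 6 vascular rows (miR-126a, miR-143 and miR-145a) 4 could be split, and these were lower in library b in 4 of 4 by a median of -0.69. The most abundant rows of the sensory, epithelial and vascular lists could not be split into libraries. The means of all 6 sensory rows sum to 818741 in AC3-/- and 2716673 in WT. Those of all 10 epithelial rows sum to 1013889 and 2746825. The summed levels above therefore leave out most reads of the sensory and epithelial lists. The basal epithelial rows (miR-205, miR-203 and miR-31) were lower in 5 of 6, with a median of -0.29, and the 3 muscle rows tested were higher in 3 of 3, with a median of 0.35. Their part in the members' levels was not tested. Which cells the members' reads came from was not measured. In a bulk tissue, fewer cells that make these miRNAs and less of them per cell cannot be told apart.

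The other miRNAs whose pattern over the 4 libraries lay nearest to the members were leukocyte miRNAs. Likeness was the root mean square difference between log2 values centred over the 4 libraries and the mean centred profile of the 6 members, over 248 other miRNAs with a mean of at least 100, whose median distance was 1.13. miR-223-5p (distance 0.305) and miR-223-3p (0.305), arms of a myeloid-cell precursor, were nearest, followed by miR-155-5p (0.427) and by miR-142a-3p and miR-142b (0.455 each), which have equal values in every library and are read as 1 observation. Normalised reads of miR-223-3p were 632.5 and 738.2 in AC3-/- and 1079 and 214.0 in WT. The members themselves lay between 0.239 (miR-34c-3p) and 0.522 (miR-449a-5p) from their own mean profile. This likeness rests on 4 libraries, and WT library b has the lowest value in each of these profiles.

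Between the genotypes no member passed a test. The authors' deposited table calls 0 of 9 members at an adjusted p of 0.05, where it calls 0.0857% of its 1167 rows, and 0 of 9 at an unadjusted p of 0.05, where it has 3.51%. All 9 log2 fold changes of AC3-/- over WT in the authors' deposited table were above 0, as were 49.5% of all rows, but small, with a median of 0.05 against -0.01 for the table. The authors' deposited table gives miR-34b-3p the largest, 0.16 (means 7942 and 6671, adjusted p = 0.976). For miR-34c-5p it was 0.02 (adjusted p = 0.990) and for miR-449a-5p 0.03 (means 4998 and 4795, adjusted p = 0.989). The median by cluster in the authors' deposited table was 0.06 over 4 miR-34b/c rows and 0.05 over 5 miR-449 rows. The near-equal means of miR-449a-5p combine AC3-/- libraries of 4027 and 5969 with WT libraries of 9079 and 512.2, so they stand for no pair of similar WT values.

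The deposited log2 fold changes are shrunken toward 0, and more so for the members than for most rows. In the authors' deposited table the deposited value came to 42.6% to 66.0% of the log2 ratio of the means, at the median 59.3%, in the 6 members with a mean of at least 100. The median over 289 rows that abundant was 86.1%. miR-449a-5p, with the widest gap between WT libraries, kept 42.6%, and miR-34b-5p 66.0%.

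limma, fitted to log2(normalised reads + 1) of the tested miRNAs, called 0 of the 6 members at an adjusted p of 0.05 and 0 at an unadjusted p of 0.05, where it called 0% and 3.56% of them all. The intervals were wide. For miR-34b-5p the log2 difference, AC3-/- minus WT, was 0.39 with a standard error of 0.64 (95% interval -1.22 to 1.99, adjusted p = 0.932). For miR-449a-5p it was 1.18 with a standard error of 1.29 (-2.07 to 4.43, adjusted p = 0.932). The median standard error of the 6 members was 0.98 and that of all tested miRNAs was 0.42, so the members' differences were less precise than that of the median tested miRNA. Differences of several-fold in either direction lie inside these intervals, and the missing call does not show that the genotypes were alike.

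The sign of the genotype difference turned on which WT library was used. Without WT library b, all 6 members were lower in AC3-/-, with log2 differences from -0.89 (miR-449a-5p, adjusted p = 0.229) to -0.49 (miR-34b-3p, adjusted p = 0.640), a median of -0.76, and 0 of 6 past the adjusted p in limma, against 0.445% of the tested miRNAs. At an unadjusted p of 0.05, 2 of 6 passed, miR-449a-5p and miR-34c-3p, against 10.2%. Without WT library a, all 6 were higher, from 1.23 (miR-34b-3p, adjusted p = 0.0153) to 3.26 (miR-449a-5p, adjusted p = 6.05e-07), and 6 of 6 passed in limma, against 14% of the tested miRNAs. In both fits the lone WT library is assumed to vary like the AC3-/- pair, although the WT libraries lay further apart than that pair. miR-34a-5p, which has the same seed but its own gene on chromosome 4, had 358.9 and 486.1 normalised reads in AC3-/- and 328.3 and 199.97 in WT. Its AC3-/- libraries lay above both WT libraries, unlike those of the 6 tested members (adjusted p = 0.940 in the authors' deposited table). Genotypes that did not overlap, in either direction, were found in 33.6% of the tested miRNAs, so this order alone does not set miR-34a-5p apart.

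**Figure D3:**
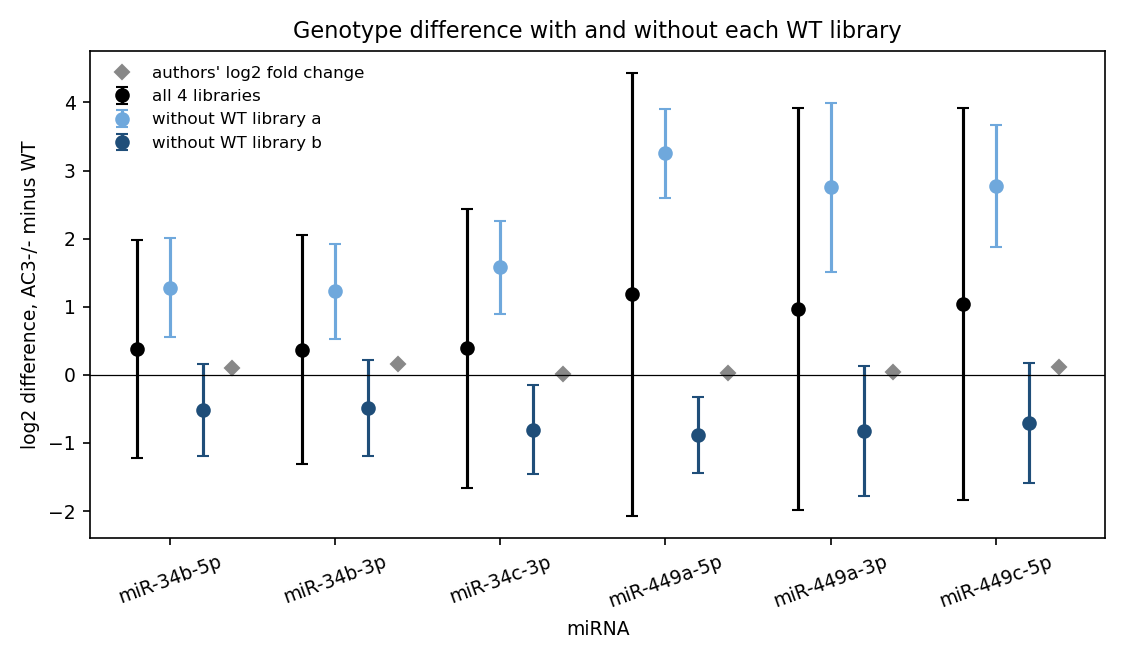
Log2 difference, AC3-/- minus WT, from limma with 95% intervals, with all 4 libraries and without each WT library, beside the log2 fold change of the authors' deposited table. Without WT library b all 6 members lie below 0, and without WT library a all 6 lie above 0.

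The 2 clusters were compared through the ratio of their reads within a library, which needs no scaling. For the members that could be split, miR-34b/c reads were 2.30 and 3.15 times the miR-449 reads in the AC3-/- libraries, and 2.23 and 9.92 times in the WT libraries, a before b (95% counting intervals 2.22 to 2.38, 3.07 to 3.24, 2.17 to 2.28 and 9.02 to 10.9). The ratio in WT library b stands above the other 3, and the gap between the WT libraries, 4.45-fold, is wider than the 1.37-fold gap between the AC3-/- libraries. A two-sided exact permutation test of the log2 ratio between genotypes gave p = 1, where 2 libraries against 2 cannot go below 0.333. The difference in log2 ratio, AC3-/- minus WT, was -0.80 with all 4 libraries and 0.27 without WT library b, of the opposite sign. Between 2 single 5p arms that share a seed, miR-34b-5p stood at 0.315 and 0.312 times miR-449a-5p in AC3-/- and 0.241 and 1.23 times in WT. This pair leaves out miR-34c-5p, the most abundant member, so it does not stand for the 5p output of the clusters. In WT library b miR-34b-5p was thus above miR-449a-5p, the reverse of the other 3 libraries. With miR-34c-5p included, which is possible for the means only, the clusters stood at 46.5 to 1 in AC3-/- and 47.6 to 1 in WT in the authors' deposited table.

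The arms of Mir34b and of Mir449a kept their order in all 4 libraries, and the arm ratio of Mir449a stayed within a range of 1.28-fold. miR-449a-5p had 140 and 124 times the reads of miR-449a-3p in AC3-/-, and 136 and 110 times in WT, with counting intervals that overlap (42.5 to 404 in WT library b, which has 4 reads of the 3p arm). The 3p arm was the larger one in Mir34b: miR-34b-3p had 3.80 and 5.94 times the reads of miR-34b-5p in AC3-/- and 4.66 and 4.94 times in WT. This ratio differed more between the AC3-/- libraries (1.57-fold) than between the WT libraries (1.06-fold). In Mir34c the 5p arm prevailed, by 43.5 times in AC3-/- and 43.4 times in WT over the means of the authors' deposited table. Two-sided exact permutation tests of the log2 arm ratio gave p = 1 for Mir34b and p = 0.667 for Mir449a, again with 0.333 as the smallest possible value. The difference in the log2 ratio of the 5p to the 3p arm, AC3-/- minus WT, was 0.02 for Mir34b and 0.11 for Mir449a with all 4 libraries, and -0.03 and -0.04 without WT library b.

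Ratios between precursors of 1 cluster varied about as much as the arm ratio of Mir34b. miR-449a-5p had 26.9 and 19.6 times the reads of miR-449c-5p in AC3-/- and 26.0 and 16.8 times in WT, a range of 1.60-fold. miR-34b-3p had 1.34 and 1.58 times the reads of miR-34c-3p in AC3-/-, and 1.17 and 1.86 times in WT, a range of 1.59-fold. Both ranges lie well under the 4.45-fold range of the ratio between the clusters.

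**Figure D4:**
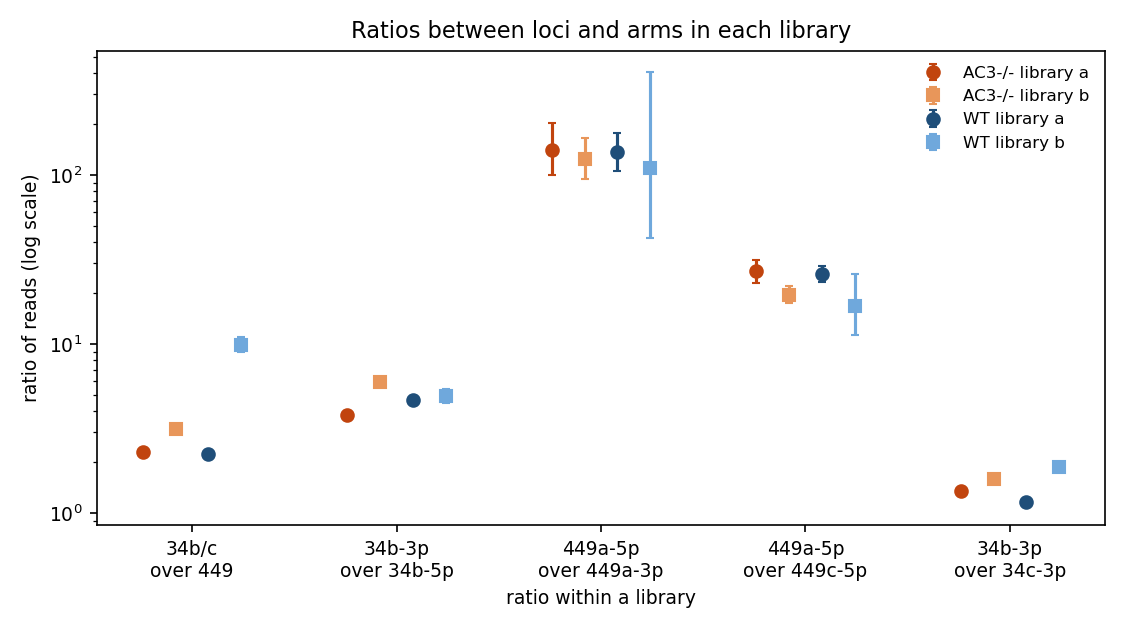
Ratios of reads within each library (log scale) between the clusters, between arms and between precursors of a cluster, with 95% exact binomial counting intervals. The ratio of miR-34b/c to miR-449 is 9.92 in WT library b and 2.23 to 3.15 in the other 3 libraries, while the arm ratios of Mir449a have overlapping intervals.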

How the data were processed

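The authors deposited 1 comparison table with, per genotype, a signal: the mean normalised read count of its 2 libraries, per the file headers and the values. The same table holds the authors' log2 fold change, p-value and adjusted p-value. Bowtie, DESeq 1.8.3 and GRCm38 are named in the submitters' processing notes, with no role; how reads were counted and filtered, and the miRBase release, is not given in the sources used here. Size factors, started from the smallest values and refitted by least squares over rows with 1 solution, were 1.148 and 1.099 for AC3-/- and 0.9411 and 0.8551 for WT. Whole reads followed for 1125 and 1134 rows that had 1 solution, a step tested on simulated data. A limma 3.58.1 fit (R 4.3.3), with an intensity trend and Benjamini-Hochberg adjustment, covered split rows with a mean of at least 10. Named miRNAs were the members, rows sharing a 5p seed, and the 5 nearest profiles. Members, lists and rules were chosen with earlier results of these data known. Ratios used exact permutation tests over libraries (scipy 1.17.1); intervals are exact Poisson or Clopper-Pearson. Alternatives changed pseudocount, filter, scaling, trend, weights and libraries. Mature sequences matched 947 of 1167 rows.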

Additional observations from a re-analysis of the deposited data

How the results depend on the processing

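No member passed the adjusted p of 0.05 in any limma setting with all 4 libraries (pseudocounts of 0.5 and 5, no filter, a mean of at least 100, median centring, no trend, voom weights), where adjusted p ranged from 0.773 to 0.968 and the log2 differences from 0.28 to 1.18. With 1 library left out, 0 to 6 members passed, and the 6 were called without WT library a only. The median log2 difference was 0.05 over the 9 members in the authors' deposited table, whose values are shrunken. As the log2 ratio of the deposited means, where one exists, the median was 0.13. Over the recovered libraries of the 6 tested members it was 0.67, and it ranged from -0.76 to 2.17 with 1 library left out. The recovered values average log2 reads, in which a low library weighs more than in a mean of reads. By miRNA these ranges were -0.51 to 1.28 for miR-34b-5p, -0.49 to 1.23 for miR-34b-3p, -0.80 to 1.58 for miR-34c-3p, -0.89 to 3.26 for miR-449a-5p, -0.83 to 2.75 for miR-449a-3p and -0.71 to 2.77 for miR-449c-5p. The lowest value was that without WT library b and the highest that without WT library a in all 6. Without AC3-/- library b the sign also turned for miR-34b-3p (-0.23) and miR-34c-3p (-0.10). The log2 ratio of the clusters, AC3-/- minus WT, was -0.03 over the means with miR-34c-5p, 0.09 over the means of the members that could be split, and -1.88 to 0.27 over these members with 1 library left out. The same difference in the log2 ratio of the 5p to the 3p arm was -0.10 for Mir34b and -0.04 for Mir449a over the means, and with 1 library left out it ranged from -0.31 to 0.34 and from -0.043 to 0.27; for Mir449c it was -0.28 with a pseudocount of 1, and no ratio without one exists because its 3p arm is at 0 in WT. The within-genotype medians kept their sign under a pseudocount of 5, all 8 members and median centring. miR-449a-3p was not tested at a mean of at least 100. No paired analysis was possible because the deposited means carry no replicate numbers. Depth limits miR-449b and miR-449c-3p, with at most 2 reads in any library.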
